A study of Mus musculus with 45 samples.

Results

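The adipocyte genes Cfd, Adipoq, Retn, Cidec, Plin1, Car3, Fabp4, Plin4, Lep and Ucp1 were followed through all uterine libraries of the study, as 10 of the 24422 gene symbols in its count table. They were selected on knowledge of fat cells and on their counts in these same libraries, some of them being high in single libraries, so their levels are given as a description. Female CD-1 mice were wildtype (WT) or Plag1 knockout (KO), and the mice of both genotypes had been superovulated with pregnant mare serum and then human chorionic gonadotropin and were killed the day after the second hormone. The groups were WT uterus, KO uterus, WT endometrium, KO endometrium, WT myometrium and KO myometrium, with 7 mice in each and 14 mice in all. Uterus was a piece of intact horn, endometrium was the mucosa scraped off the opened horn, and myometrium was the wall left behind, so the layers were separated by hand and no cell type was sorted. The knockout was present in the whole animal, and every mouse of the series had received the hormones. STRT RNA-seq, which counts tags at the 5′ ends of polyadenylated transcripts, gave 45 libraries, and the repeat libraries of a mouse and tissue were summed to 42 samples.

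White adipocytes store triglyceride in a single large lipid droplet and release hormones into the blood. Plin1, Plin4 and Cidec encode proteins of the lipid droplet coat, Fabp4 a carrier of fatty acids in the cytoplasm and Car3 a carbonic anhydrase that is abundant in fat and slow muscle. Adipoq (adiponectin), Retn (resistin), Lep (leptin) and Cfd (complement factor D, or adipsin) encode secreted products, and Ucp1 encodes the uncoupling protein of brown fat. In the mouse, fat lies against the uterus in the mesometrium, the fold that carries its vessels, and Fabp4 is also made by capillary endothelium and macrophages.

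Depth was between 256298 and 1222627 gene counts per library, so a total of 3 counts, taken here as the limit that a count of 0 allows, corresponded to 2.45 to 11.7 CPM (counts per 1000000 gene counts of a library). Plag1 itself had at most 1 count in any library, with such a count in 2 WT and 5 KO libraries, and so did not check the genotype labels. The tissue labels were checked against layer markers. The 4 smooth muscle markers summed to between 8099 and 25042 CPM in the myometrium groups and the 4 epithelial markers to between 708 and 2284 CPM in the endometrium groups. A pair of endometrium samples stood apart: smooth muscle markers summed to 7359 CPM in WT mouse 3 and to 8082 CPM in KO mouse 13, against a median of 1411 CPM in WT endometrium and 581 CPM in KO endometrium. In myometrium the epithelial markers were highest in WT mouse 5, at 576 CPM (group median 107 CPM), and in KO mouse 2, at 433 CPM (group median 183 CPM). WT mouse 5 also had the lowest smooth muscle sum of the myometrium groups. Each library is labelled with a letter and a number, read here as plate row and position, which the labels do not state. On that reading, the libraries of rows A to C came from 5 WT and 3 KO mice and those of rows D to F from 2 WT and 4 KO mice. Rows A and D held uterus, B and E myometrium, and C and F endometrium, apart from libraries D8, E8 and F6. Single row and tissue can thus hardly be told apart in the comparisons of tissues.

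The 250 bases before the start site are shown for the 5 genes whose counts came together in the same few samples, because they are the genes the account turns on. The windows are from RefSeq (GRCm38.p6), read 5′ to 3′ in the direction of the gene, and capitals mark matches to the C/EBP core TTGCNNAA, a sequence bound by the C/EBP factors of the adipocyte lineage.
Cfd (chr10:79890603-79890852, plus strand): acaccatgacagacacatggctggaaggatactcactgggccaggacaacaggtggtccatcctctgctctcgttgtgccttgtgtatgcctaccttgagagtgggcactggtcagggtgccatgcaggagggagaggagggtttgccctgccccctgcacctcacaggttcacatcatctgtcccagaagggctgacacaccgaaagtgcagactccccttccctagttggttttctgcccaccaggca
Adipoq (chr16:23146286-23146535, plus strand): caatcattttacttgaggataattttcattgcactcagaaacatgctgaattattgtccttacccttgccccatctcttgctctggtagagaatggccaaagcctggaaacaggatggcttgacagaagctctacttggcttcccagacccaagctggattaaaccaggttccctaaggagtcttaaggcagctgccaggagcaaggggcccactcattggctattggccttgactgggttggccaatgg
Retn (chr8:3655520-3655769, plus strand): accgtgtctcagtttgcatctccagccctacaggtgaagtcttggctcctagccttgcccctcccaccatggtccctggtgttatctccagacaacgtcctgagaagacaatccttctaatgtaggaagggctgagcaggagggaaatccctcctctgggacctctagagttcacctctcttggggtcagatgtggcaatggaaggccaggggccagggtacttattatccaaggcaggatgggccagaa
Cidec, first start (chr6:113435761-113436010, minus strand): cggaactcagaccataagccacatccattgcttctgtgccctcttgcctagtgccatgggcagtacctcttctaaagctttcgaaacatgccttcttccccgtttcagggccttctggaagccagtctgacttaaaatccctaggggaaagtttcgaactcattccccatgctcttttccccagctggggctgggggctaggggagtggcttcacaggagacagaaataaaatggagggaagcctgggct
Cidec, second start (chr6:113434765-113435014, minus strand): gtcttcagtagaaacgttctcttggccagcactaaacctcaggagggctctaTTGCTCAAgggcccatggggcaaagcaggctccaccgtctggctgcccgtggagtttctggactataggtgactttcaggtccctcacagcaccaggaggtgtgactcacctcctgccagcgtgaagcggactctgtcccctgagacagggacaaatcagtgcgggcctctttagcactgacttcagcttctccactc
Plin1 (chr7:79732777-79733026, minus strand): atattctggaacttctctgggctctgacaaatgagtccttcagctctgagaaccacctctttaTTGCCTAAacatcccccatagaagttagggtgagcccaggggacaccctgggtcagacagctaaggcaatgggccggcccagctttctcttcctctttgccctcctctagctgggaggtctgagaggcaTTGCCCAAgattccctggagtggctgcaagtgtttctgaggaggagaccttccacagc
Plin1 had 2 matches, from 187 to 180 and from 58 to 51 bases before the start, and the second start of Cidec had 1, from 198 to 191 bases before it. The windows of Cfd, Adipoq and Retn and that of the first Cidec start held no match. Among all 32851 promoter windows of this length, 9.56% held the C/EBP core on either strand. The hexamer AGGTCA, to which nuclear receptors bind, was in 14.0% of all windows and in none of these 6. The Lep window had a C/EBP core from 55 to 48 bases before the start, and the Ucp1 window had the hexamer. The direct repeat AGGTCANAGGTCA, a form bound by PPAR and RXR that contains the hexamer, and TATAAA were searched on both strands as well, and neither was in a member's window. They were in 0.0335% and 12.4% of all windows. A window was at hand for 8 of the 10 genes, not for Car3 and Fabp4.

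On the genome build of the counts (mm9, here the NCBIM37 annotation), Cfd lies on chromosome 10 (79353598 to 79355401, plus strand), Adipoq on chromosome 16 (23146609 to 23158101, plus), Retn on chromosome 8 (3655770 to 3660110, plus), Cidec on chromosome 6 (113374628 to 113385754, minus) and Plin1 on chromosome 7 (86866050 to 86877662, minus). Fabp4 (10204347 to 10208576, minus) and Car3 (14863538 to 14872351, plus) are both on chromosome 3. Lep lies on chromosome 6 (29010220 to 29023877, plus) and Ucp1 on chromosome 8 (85814247 to 85822355, plus). Plin4, on chromosome 17 (56240014 to 56249225, minus), overlaps Hdgfrp2 on the opposite strand, and since the use of strand in counting was not stated, its counts may hold reads of that gene.

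In total the 10 genes had 2299 counts over the 45 libraries, and they fell into 3 kinds. Cfd, Adipoq, Retn, Cidec and Plin1 were at or near 0 in most samples and high in a few. Fabp4, Plin4 and Car3 were counted in most samples. Lep and Ucp1 had no count in any library, which over the 31794045 gene counts of the series allows a level of up to 0.0944 CPM. That limit holds for all libraries pooled. In the 4 samples with counts of Adipoq, taken singly, a count of 0 allows up to 2.82 to 6.00 CPM. This grouping was made after the counts were seen.

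**Figure D1:**
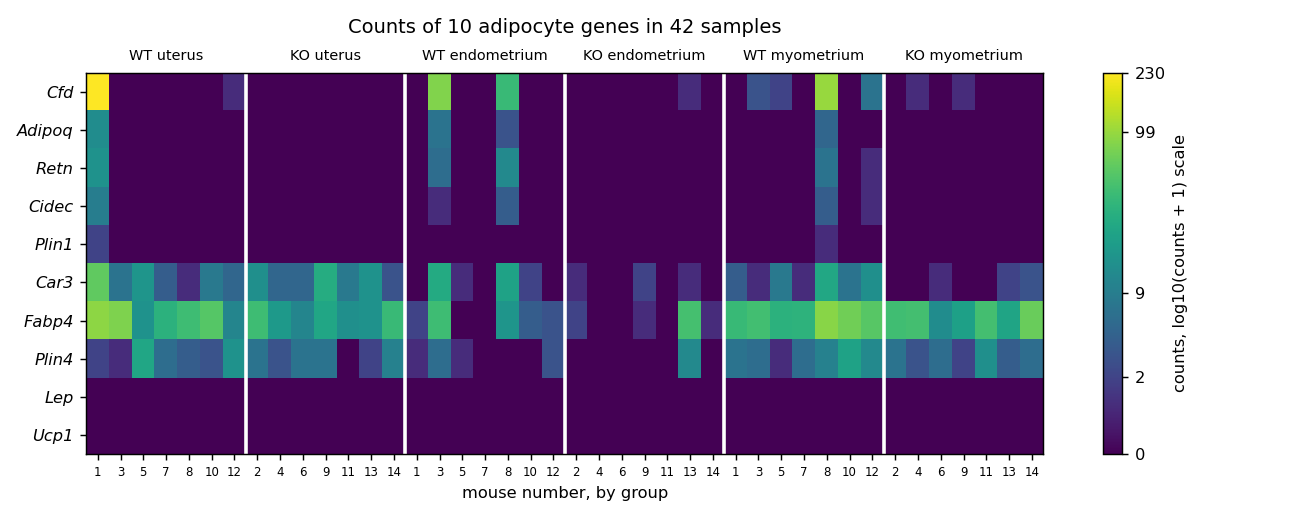
Counts of the 10 genes (rows) in the 42 samples (columns, by group and mouse number), on a colour scale of log10(counts + 1). The first 5 rows are dark except in WT uterus mouse 1, WT endometrium mice 3 and 8 and WT myometrium mouse 8, with single faint cells elsewhere, and Fabp4 is lit in 37 of 42 samples.

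The restricted genes were Cfd, a serine protease that activates complement factor B, Adipoq and Retn, both hormones, and the droplet coat genes Cidec and Plin1. Together they had 558 counts, of which 540 (96.8%) were in 4 samples: WT uterus of mouse 1, WT endometrium of mouse 3, WT endometrium of mouse 8 and WT myometrium of mouse 8. These 4 were all the samples with any count of Adipoq, and each had at least 3. They were singled out after their values were seen, so each is given on its own beside the other mice of its group.

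Cfd had 231 counts (217 CPM) in WT uterus of mouse 1, whereas of the other 6 WT uteri only that of mouse 12 had a count, with 1. In WT endometrium, Cfd had 81 counts (109 CPM) in mouse 3 and 39 counts (60.3 CPM) in mouse 8, and 0 in the other 5 mice. In WT myometrium it had 100 counts (200 CPM) in mouse 8, 7 in mouse 12, 3 in mouse 3, 2 in mouse 5 and 0 in mice 1, 7 and 10. The high samples thus exceeded the next mouse of their group by a wide margin in each of the 3 tissues. In KO mice, Cfd had 1 count in endometrium of mouse 13, 1 in myometrium of mouse 4 and 1 in myometrium of mouse 9, and 0 in the other 18 samples. All KO values were therefore below the limit of 3 counts.

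Adipoq, the hormone most often used to mark adipocytes, had 13 counts in WT uterus of mouse 1, 7 in WT endometrium of mouse 3, 3 in WT endometrium of mouse 8 and 5 in WT myometrium of mouse 8. It had 0 counts in the other 38 samples, 21 of them from KO mice. Retn had 15, 6, 12 and 7 counts in the 4 samples in that order, and a single count elsewhere, in WT myometrium of mouse 12. Cidec had 9, 1, 4 and 4 counts, and again 1 count in WT myometrium of mouse 12. Plin1 reached only 2 counts in WT uterus of mouse 1 and 1 in WT myometrium of mouse 8, and was at 0 in every other sample, the pair of endometrium samples included. With so few counts, a level of Plin1 could not be given at this depth.

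Summed over the 5 genes, the level was 254 CPM in WT uterus of mouse 1, 234 CPM in WT myometrium of mouse 8, 127 CPM in WT endometrium of mouse 3 and 89.7 CPM in WT endometrium of mouse 8. As a share of all gene counts, these were 0.0254% (95% Wilson interval 0.0225 to 0.0286), 0.0234% (0.0195 to 0.0281), 0.0127% (0.0104 to 0.0156) and 0.00897% (0.00694 to 0.0116). The intervals cover counting error only. The next sample in order, WT myometrium of mouse 12, was at 9.37 CPM from 9 counts, 7 of them Cfd. Of the 38 other samples, 31 had no count of these genes, and 6 of the 7 that did had Cfd alone.

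**Figure D2:**
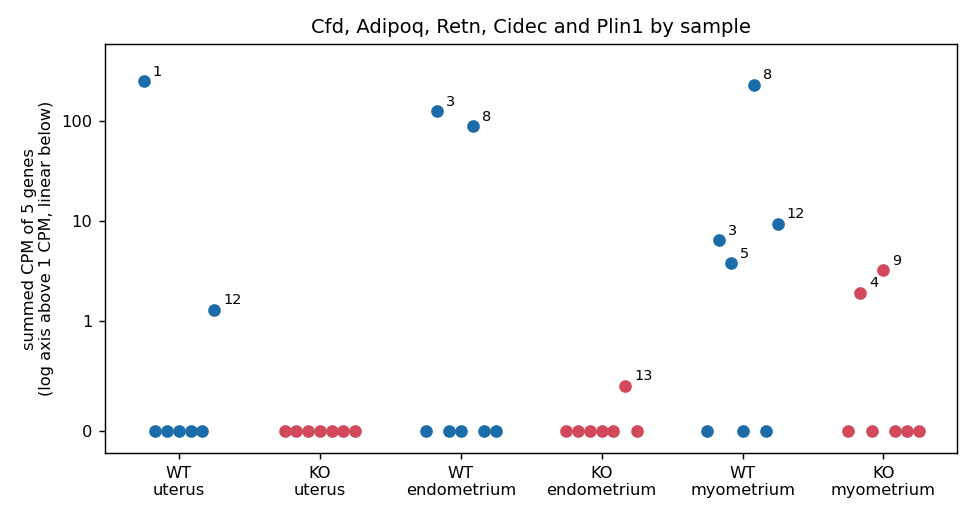
Summed level of Cfd, Adipoq, Retn, Cidec and Plin1 (CPM, log axis above 1 CPM and linear below) in each of the 42 samples, by group, with the mouse number beside every sample above 0. The 4 high samples lie between 89.7 and 254 CPM, all others at or below 9.37 CPM.

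The other tissues of the same mice were low or at 0. Mouse 1 had 0 counts of the 5 genes in its endometrium and in its myometrium. Mouse 3 had 0 in its uterus and 3 counts, all of Cfd, in its myometrium. Mouse 8 was high in both separated layers and had 0 counts in its piece of intact uterus, at 945358 gene counts and so with a limit of 3.17 CPM. No mouse thus had the restricted genes in all of its 3 tissues. The 4 libraries came from 3 mice and all lay in plate rows A to C.

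By genotype, the 5 genes had 555 counts in the 21 WT samples and 3 in the 21 KO samples. All but 15 of the WT counts came from the 4 samples. Since the plate rows and the genotypes were unequally mixed (5 of 7 WT mice in rows A to C), and 3 mice carried the counts, row, mouse and genotype cannot be told apart for these genes. In a bulk sample, moreover, fewer adipocytes and less RNA per adipocyte cannot be told apart.

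The proportions among the 5 genes were alike in 3 of the 4 samples. Cfd was 85.6% of their counts in WT uterus of mouse 1 (Wilson interval 80.9 to 89.3), 85.3% in WT endometrium of mouse 3 (76.8 to 91.0) and 85.5% in WT myometrium of mouse 8 (78.0 to 90.7). In WT endometrium of mouse 8 it was 67.2% (54.4 to 77.9), below the estimate of the other samples. Retn had a larger share there, 20.7% (12.3 to 32.8), from 12 counts. In the other samples it was 5.56% (3.40 to 8.96), 6.32% (2.93 to 13.1) and 5.98% (2.93 to 11.8). The interval of WT endometrium of mouse 3 overlapped that of mouse 8. Adipoq ranged from 4.27% to 7.37% and its intervals overlapped in all 4. These are shares of tag counts, not of transcripts per length, and were not tested.

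**Figure D3:**
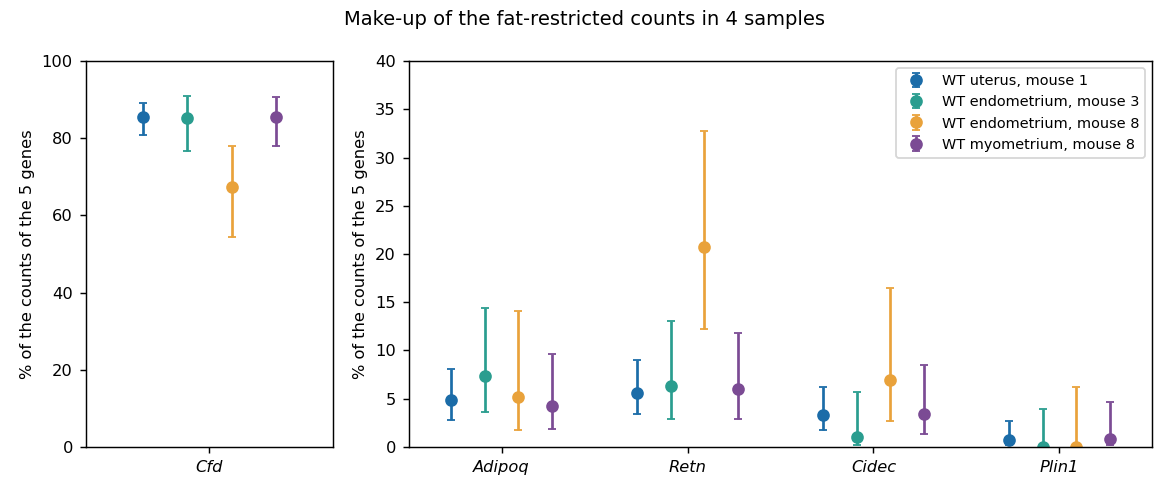
Share (%) of each restricted gene among the counts of the 5 genes in the 4 samples, with 95% Wilson intervals (counting error only). Cfd lies near 85% in 3 samples and at 67.2% in WT endometrium mouse 8, where Retn is at 20.7%.

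Fabp4 and Car3 were also high in these samples. Fabp4 was the highest of its group in WT uterus of mouse 1 (90 counts, 84.6 CPM, next 66.0 CPM), in WT myometrium of mouse 8 (87 counts, 174 CPM, next 94.8 CPM) and in WT endometrium of mouse 3 (42 counts, 56.3 CPM), followed there by mouse 8 (16 counts, 24.8 CPM). The other 5 WT endometria had 7.80 CPM or less. Car3 had 61 counts in WT uterus of mouse 1 and 25 in WT myometrium of mouse 8, the highest of their groups, and 27 and 22 counts in WT endometrium of mice 3 and 8 against 0 to 2 in the other 5. Plin4 did not follow this order: it had 2 counts in WT uterus of mouse 1 and 0 in WT endometrium of mouse 8. Its counts in WT endometrium of mouse 3 (6) were the highest of that group, and those in WT myometrium of mouse 8 (10, 20.0 CPM) were second to mouse 10 (25.6 CPM).

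Summed over all 10 genes, the counts in WT uterus were 423, 88, 55, 42, 47, 65 and 32 for mice 1, 3, 5, 7, 8, 10 and 12, and those in KO uterus 63, 26, 23, 59, 22, 32 and 52 for mice 2, 4, 6, 9, 11, 13 and 14. In WT endometrium they were 3, 170, 2, 0, 96, 6 and 6, and in KO endometrium 3, 0, 0, 3, 0, 60 and 1, in the same orders of mice. In WT myometrium they were 49, 54, 43, 40, 239, 99 and 90, and in KO myometrium 50, 49, 20, 24, 59, 29 and 75. In CPM, too, these 4 samples were the highest of their groups. In KO endometrium the sum of mouse 13 was mostly Fabp4 (46) and Plin4 (12).

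Other genes of the adipocyte were compared in the same 4 samples through a list of 40 (lipases, enzymes of fat synthesis, transporters and fat-cell regulators), of which 39 were in the table. In WT uterus of mouse 1, 3 of the 27 that averaged 5 CPM or more were the highest of the 7 WT uteri (11.1%, against 11.2% of all genes at that level). In WT endometrium of mouse 3 it was 1 of 26 (3.85%, against 8.11% of all genes) and in that of mouse 8 it was 3 of 26 (11.5%, against 18.9%). In WT myometrium of mouse 8 it was 4 of 26 (15.4%, against 11.3%). The list as a whole was thus highest no more often than genes at large in 3 samples and slightly more often in the last. Its median log2 ratio to the other mice, on CPM + 5, was -0.16, 0.04, 0.07 and 0.17 in these samples, in the order given, beside -0.05, -0.07, 0.12 and -0.05 for all genes.

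Single genes of that list were high, and those that were the highest of their group are given here. Lpl, the lipoprotein lipase that frees fatty acids in capillaries, was the highest of its group in 3 of the 4 samples. Its level was 30.1 CPM in WT uterus of mouse 1 (next 29.8), 38.9 CPM in WT endometrium of mouse 3 (next 14.2) and 56.0 CPM in WT myometrium of mouse 8 (next 50.9). Only the endometrium value stood well clear of the next mouse. Cd36, a fatty acid transporter, was at 25.4 CPM in WT uterus of mouse 1, above the 1.83 to 12.4 CPM of the other uteri, but at 3.09 CPM in WT endometrium of mouse 8, below its whole group, and at 4.00 CPM in WT myometrium of mouse 8, again below its group. Sncg, a synuclein gene also used in neurons, was at 14.1 CPM in WT uterus of mouse 1, against 3.17 to 8.18 CPM in the other uteri. In WT endometrium of mouse 8, Rbp4, the retinol carrier, was at 136 CPM (next 79.8), while Lipe and Dgat2, a lipase and a triglyceride synthase, were at 20.1 CPM (next 17.9) and 268 CPM (next 265). Among the genes under 5 CPM on average, Plin5 had 9 counts there (13.9 CPM, next 3.90) and Adig, a gene induced in adipogenesis, had 6 counts against 0 in the other 6 mice. Others at that low level that were the highest of their group were Pde3b in WT uterus of mouse 1 (6 counts), Slc2a4 in WT endometrium of mouse 3 (8 counts), Sncg in WT endometrium of mouse 8 (6 counts) and Tusc5 in WT myometrium of mouse 8 (3 counts). In WT myometrium of mouse 8, Nnat was at 28.0 CPM (next 11.5), Plin2 at 44.0 CPM (next 41.7) and Rbp4 at 52.0 CPM (next 48.8). Rbp4, Plin5 and Adig in that endometrium and Nnat, Lpl and Pparg in that myometrium were the highest of all 42 samples. Pparg, the nuclear receptor that drives adipocyte differentiation, had 2 counts in WT endometrium of mouse 3 and 2 in WT myometrium of mouse 8, the highest of their groups, and 0 in the remaining pair. Aqp7, the glycerol channel of adipocytes, had 0 counts in every sample. From the brown fat list, Cidea, a droplet protein of brown fat and of some epithelia, had 26 counts (40.2 CPM) in WT endometrium of mouse 8, against 0 to 3.54 CPM in the other WT endometria. Cox7a1 was also the highest of its group there, while Dio2 was at 38.7 CPM, below the median of 73.7 CPM of the other mice. Dio2 was the highest of its group in WT uterus of mouse 1 (30.1 CPM, next 14.2), as was Cox8b in WT myometrium of mouse 8.

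**Figure D4:**
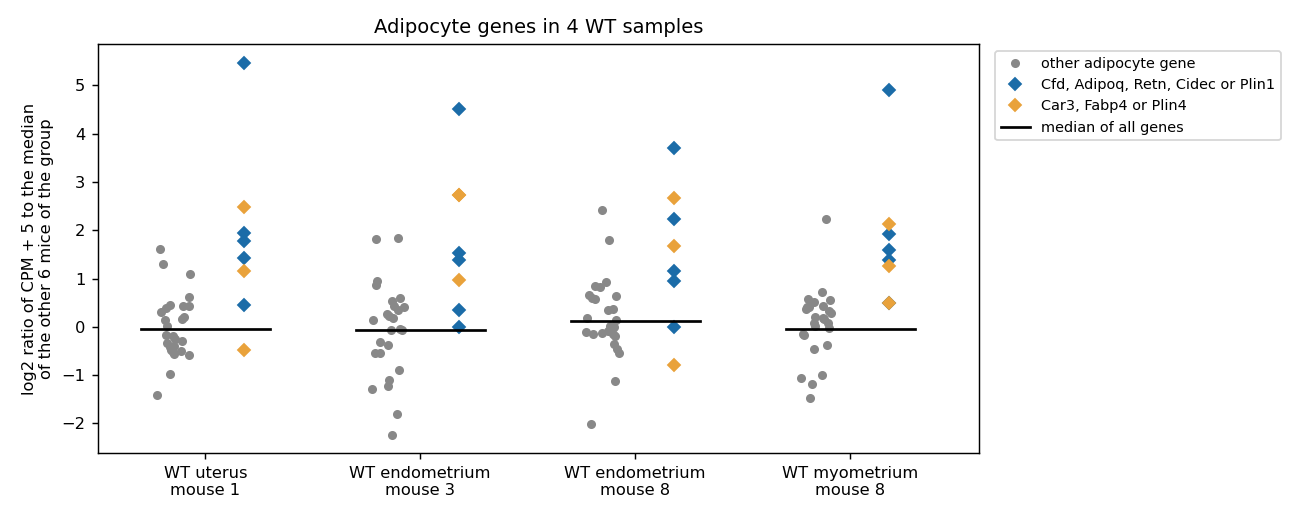
Log2 ratio of CPM + 5 in each of the 4 samples to the median of the other 6 mice of its group, for the list of other adipocyte genes averaging 5 CPM or more (grey), the 5 restricted genes (blue) and Car3, Fabp4 and Plin4 (orange); the black line is the median of all genes. The grey points scatter around the line in each sample, while Cfd is the highest point in all 4.

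Markers of other cell types in the same 4 samples were as follows. The smooth muscle markers Acta2, Des, Myh11 and Cnn1 were all highest in WT endometrium of mouse 3 among its group, with a median log2 ratio of 3.19 to the other mice. In WT endometrium of mouse 8 the median log2 ratio was -0.00366. The mesothelial markers Msln and Upk3b, genes of the outer lining of the uterus, were the highest of their group in WT endometrium of mouse 8, at 29.4 and 30.9 CPM, and in WT myometrium of mouse 8, at 16.0 and 62.0 CPM. In WT uterus of mouse 1 both lay within the range of the other mice, at 27.3 and 107 CPM, while Upk1b was the highest of its group (12.2 CPM, next 11.3). The 9 endothelial markers summed to 192, 307, 289 and 202 CPM in WT uterus of mouse 1, WT endometrium of mice 3 and 8 and WT myometrium of mouse 8, inside the range of their groups. The 8 macrophage markers summed to 769, 387, 933 and 542 CPM in the same order, the second being the lowest and the last the highest of its group. Of these 8, Adgre1 and Mrc1 were the highest of their group in WT uterus of mouse 1 (25.0%, against 11.2% of all genes). Csf1r, C1qa and C1qb were so in WT endometrium of mouse 8 (37.5%, against 18.9%). Lyz2 and Mrc1 were so in WT myometrium of mouse 8 (25.0%, against 11.3%), and none was in WT endometrium of mouse 3. Of the single endothelial markers, Esam, Emcn and Flt1 were the highest of their group in WT endometrium of mouse 3. These were 3 of the 8 that averaged 5 CPM or more (37.5%, against 8.11% of all genes). Emcn and Flt1 there were the highest of all 42 samples. Tek, under 5 CPM on average, was also highest of its group there (7 counts). Egfl7 was the highest of its group in WT uterus of mouse 1 and WT endometrium of mouse 8, and Tie1 in WT myometrium of mouse 8. The 3 striated muscle markers that averaged 5 CPM or more in endometrium (Acta1, Ckm and Tnni2) were all highest of their group in WT endometrium of mouse 3. Their median log2 ratio there was 2.41, against medians for the list of -0.72 in WT uterus of mouse 1, -0.52 in WT endometrium of mouse 8 and -0.26 in WT myometrium of mouse 8. Tnnt3, under 5 CPM on average, was also highest in WT endometrium of mouse 3 (5 counts). Actn3, Mylpf and Pvalb of the same list had 0 counts in that sample. The skeletal muscle myosin genes Myh1, Myh2 and Myh4 had 0 counts in every sample. The median log2 ratio of the 4 epithelial markers was -0.78 in WT uterus of mouse 1, -0.97 and 0.46 in WT endometrium of mice 3 and 8 and 0.48 in WT myometrium of mouse 8. Of the red blood cell markers, the 4 hemoglobin genes were at 0 counts in all libraries. Alas2, the first enzyme of heme synthesis in red cells, had 21, 7, 6 and 1 counts in the 4 samples, in the same order, above the median of the other mice (log2 ratios of 1.10, 1.35, 1.34 and 0.26) and below the highest mouse of each group. The part of these cells in the fat-cell counts was not tested.

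Differences between the layers were asked of the genes with enough counts, in a model of all genes with genotype as a term. The test was the edgeR quasi-likelihood test, with adjusted p from Benjamini-Hochberg over all genes tested, called below 0.05. The tissues came from the same 14 mice, and this model did not pair them. Fabp4 and Plin4 kept their calls in a fit with each mouse as its own block. Fabp4 rose from endometrium to uterus to myometrium. In WT mice the lowest, median and highest levels were 0, 4.72 and 56.3 CPM in endometrium, 13.7, 44.4 and 84.6 CPM in uterus and 57.3, 73.0 and 174 CPM in myometrium. In KO mice they were 0, 1.59 and 18.9 CPM in endometrium, 12.8, 28.8 and 43.7 CPM in uterus and 24.3, 67.4 and 109 CPM in myometrium. Endometrium and myometrium did not overlap in either genotype, in WT mice only narrowly (56.3 CPM against 57.3 CPM). Myometrium was the higher in 14 of 14 mice. The shares of all genes that did either were not counted. Endometrium was below myometrium by a log2 fold change of -3.08 (SE 0.43, adjusted p = 3.74e-07), in a comparison in which 28.1% of all 14314 genes tested were called, 13.3% as lower in endometrium. Without WT mouse 3 it was -3.61 and without KO mouse 13, the mice whose endometrium was high in muscle markers, it was -3.48.

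The uterus stood between the layers. Fabp4 was higher in uterus than in endometrium by 2.20 on the log2 scale (SE 0.47, adjusted p = 0.00213) and in 14 of 14 mice, where 8.89% of all genes were called, 5.35% as higher in uterus. It was lower in uterus than in myometrium by a log2 fold change of -0.89 (SE 0.25, adjusted p = 0.00598) and in 13 of 14 mice, where 27.7% of all genes were called, 12.1% as lower in uterus. With libraries scaled to the spike-ins, which moves the median of all genes in that comparison to 0.58, the last value was -0.34 and was not called (adjusted p = 0.336). The smooth muscle markers followed the same order, all 4 being lower in endometrium than in myometrium with a median log2 fold change of -3.38. Of the 9 endothelial markers only Flt1 was called between the layers, and it was higher in endometrium by 1.04 on the log2 scale (SE 0.34, adjusted p = 0.0188). What part muscle or capillary cells had in the Fabp4 counts was not tested.

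Plin4, a perilipin made in fat, skeletal muscle and heart, had the same order. In WT mice its levels ran from 0 to 8.04 CPM in endometrium (median 3.33), 0.825 to 21.9 CPM in uterus (median 4.23) and 1.88 to 25.6 CPM in myometrium (median 12.9). In KO mice 6 of 7 endometria had no count, and the myometria ran from 5.73 to 20.3 CPM. The WT groups overlapped and the KO endometrium and myometrium did not, and the share of all genes without overlap was not counted. Endometrium was below myometrium by a log2 fold change of -2.63 (SE 0.46, adjusted p = 2.62e-05; lower in 13 of 14 mice; -2.95 without mouse 3 and -3.20 without mouse 13), and uterus was above endometrium by 1.99 (SE 0.56, adjusted p = 0.0201; higher in 10 of 14 mice). Uterus and myometrium differed by -0.68 (SE 0.36, adjusted p = 0.168), which was not called. Without mouse 5 the call between uterus and endometrium was lost (1.82, adjusted p = 0.0524), and that between uterus and myometrium was made (-0.96, adjusted p = 0.0385).

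Car3 had counts in 31 of 42 samples. In WT uterus its counts were 61, 7, 16, 4, 1, 8 and 5 for mice 1, 3, 5, 7, 8, 10 and 12, and in KO uterus 14, 5, 5, 28, 8, 15 and 3 for mice 2, 4, 6, 9, 11, 13 and 14. In WT endometrium they were 0, 27, 1, 0, 22, 2 and 0, and in KO endometrium 1, 0, 0, 2, 0, 1 and 0, in the same orders. In WT myometrium they were 4, 1, 8, 1, 25, 7 and 14, and in KO myometrium 0, 0, 1, 0, 0, 2 and 3. All 14 uteri thus had Car3, as did all 7 WT myometria, while 3 of 7 KO myometria and 7 of 14 endometria did. Between tissues it was not called in the main model: uterus differed from endometrium by 1.78 (SE 0.65, adjusted p = 0.0790; higher in 12 of 14 mice), uterus from myometrium by 1.19 (SE 0.54, adjusted p = 0.0954; higher in 10 of 14) and endometrium from myometrium by -0.55 (SE 0.60, adjusted p = 0.550). Uterus was called above endometrium under several alternatives: with DESeq2 (2.34, adjusted p = 0.0349), with spike-in scaling (2.04, adjusted p = 0.0417), when each mouse was its own block (the replicate block; 2.31, adjusted p = 0.00625), in KO mice alone (4.48, adjusted p = 0.00455) and without mouse 3 or mouse 8 (2.56 and 2.41). Uterus was called above myometrium with spike-in scaling (1.78, adjusted p = 0.00662), in KO mice alone (3.27, adjusted p = 0.00221) and without mouse 8 (1.86). In WT mice alone the values were 0.46 (adjusted p = 0.835) and 0.13 (adjusted p = 0.923), and the difference between the genotypes was not tested. Without the 4 samples with Adipoq counts, uterus against endometrium was 3.85 (adjusted p = 4.46e-05) and that between endometrium and myometrium -2.04 (adjusted p = 0.0141). The samples left out include both WT endometria with high Car3, and they held 135 of the 302 Car3 counts. These p values therefore cannot serve as a test of Car3.

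**Figure D5:**
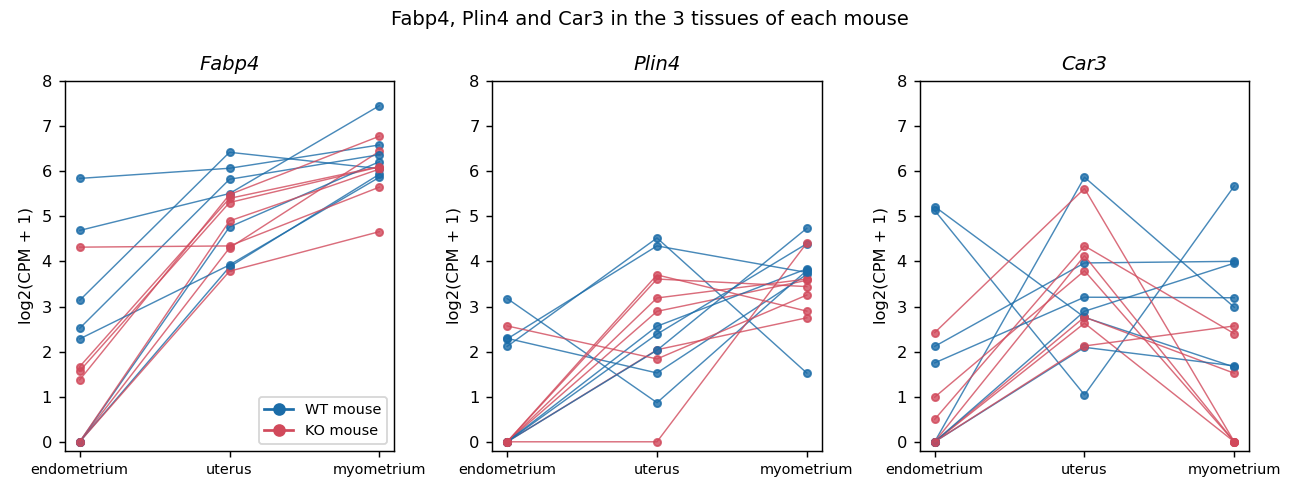
Levels of Fabp4, Plin4 and Car3 as log2(CPM + 1) in endometrium, uterus and myometrium; each line joins the 3 tissues of a mouse, WT in blue and KO in red. Fabp4 is lower in endometrium than in myometrium in all 14 mice, Plin4 in 13 of 14, and the lines of Car3 cross.

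Cfd had enough counts for a test between endometrium and myometrium and between uterus and myometrium, but its values there rested on single mice. Endometrium and myometrium differed by -0.40 (SE 0.83, adjusted p = 0.769), and by 2.15 (adjusted p = 0.0775) without mouse 8. Uterus and myometrium differed by 0.10 (SE 0.95, adjusted p = 0.954). Without mouse 1 this value was -6.07 (adjusted p = 2.74e-05), and without mouse 8 it was 3.22 (adjusted p = 0.0234). Under the replicate block it was -1.90 (adjusted p = 0.178). No direction between the tissues can be given for Cfd. Adipoq, Retn, Cidec, Plin1, Lep and Ucp1 did not reach the minimum for a test (1 CPM in 5 samples) in any comparison.

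The genotypes were compared within each tissue to ask whether the uterus of KO mothers differs from that of WT mothers. No member was called by edgeR or by DESeq2 at the minimum of 1 CPM in 5 samples. Tested were 3 in uterus, 3 in endometrium and 4 in myometrium, of which 0, 1 and 2 had an unadjusted p under 0.05. Over all genes 0% were called by edgeR in each tissue, while 5.64%, 5.20% and 4.22% had an unadjusted p under 0.05. DESeq2 called 7, 1 and 0 genes in the 3 tissues.

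Car3 was low in KO myometrium, where it was not called. It ran from 2.16 to 50.0 CPM in WT mice (median 8.15) and from 0 to 4.93 CPM in KO mice (median 0), and the groups overlapped. The log2 fold change, KO against WT, was -2.96 (SE 0.73, unadjusted p = 0.000295, adjusted p = 0.535), and without mouse 8 it was -2.22. On log2(CPM + 1), KO minus WT was -2.69 in plate rows A to C and -2.34 in rows D to F. In endometrium the fold change was -3.78 (SE 1.03, adjusted p = 0.729), but the WT counts were those of mice 3 and 8, and the other 5 WT mice (0 to 3.33 CPM) lay within the KO range (0 to 4.35 CPM). In uterus it was 0.17 (SE 0.64, adjusted p = 0.990), with 1.06 to 57.4 CPM in WT and 3.36 to 48.0 CPM in KO mice.

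Cfd was tested between genotypes in myometrium alone, where the log2 fold change was -5.34 (SE 1.28, unadjusted p = 0.000211, adjusted p = 0.535). It fell to -2.02 (adjusted p = 1.00) without WT mouse 8. With no filter on low counts, the same fold change had an adjusted p of 0.0291 in edgeR. Cfd was selected partly on its counts in these libraries, and its WT counts were mostly the 100 of mouse 8. That p therefore cannot serve as a test of Cfd. Fabp4 had log2 fold changes, KO against WT, of -0.60 (SE 0.39) in uterus, -1.46 (SE 0.83) in endometrium and -0.36 (SE 0.28) in myometrium, with adjusted p values of 0.909, 0.959 and 1.00. The endometrium value ran from -3.63 to -0.415 when each mouse was left out, without KO mouse 13 and WT mouse 3 in turn, and was 0.62 without the 4 samples with Adipoq counts. In plate rows D to F, KO minus WT was 0.16 in uterus and 0.03 in myometrium on log2(CPM + 1), against -0.86 and -0.71 in rows A to C, and within endometrium it was -0.56 against -2.21. Plin4 differed by -0.19, -0.88 and -0.36 (adjusted p from 0.984 to 1.00). None of these differences was called in the main model.

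Genes around the members were followed through lists. Of the 40 other adipocyte genes, 35 were tested between endometrium and myometrium, and 17 were called, 11 higher in endometrium and 6 lower. Among all genes 14.9% were called higher and 13.3% lower. The median log2 fold change of the list was 0.27, beside 0.03 over all genes. Higher in endometrium were the triglyceride enzymes Dgat2 (3.04, SE 0.34) and Agpat2 (1.23, SE 0.37) and Gpd1 (3.30, SE 0.46), which supplies the glycerol backbone, and the droplet protein genes Plin2 (0.73, SE 0.18) and Plin5 (3.47, SE 0.89). Lower were the glucose transporter gene Slc2a4 (-3.20, SE 0.37), the amine oxidase gene Aoc3 (-2.44, SE 0.43) of fat and smooth muscle, Lpl (-1.5, SE 0.31) and the desaturase gene Scd1 (-1.58, SE 0.31). With spike-in scaling the split was 14 higher and 6 lower.

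Between uterus and myometrium 13 of these genes were called, 8 higher in uterus and 5 lower, and with spike-in scaling 13 higher and 1 lower, where 15.7% of all genes were called higher and 12.1% lower in the main model. Between uterus and endometrium 5 were called, with Aoc3, Slc2a4 and Scd1 higher in uterus and Cd36 and Fasn lower, beside 5.35% of all genes called higher and 3.54% lower. There the replicate block gave 5 higher and 2 lower, adding Rbp4 and Sncg, and spike-in scaling gave 4 higher and 1 lower, adding Sncg and losing Cd36. The fat synthesis and storage genes called between the layers thus differed in direction among themselves. Of the mesothelial markers, all 5 in the table were higher in uterus than in endometrium (median log2 fold change 2.80) and 4 of 5 higher in uterus than in myometrium. Of the 6 striated muscle markers tested, 5 were lower in endometrium than in myometrium (median log2 fold change -2.88). No gene of these lists was called between genotypes by edgeR, and 3 of 32, 4 of 33 and 4 of 34 tested other adipocyte genes had an unadjusted p under 0.05 in uterus, endometrium and myometrium, where 5.64%, 5.20% and 4.22% of all genes did.

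The 10 receptors and partners of the secreted members all passed the filter. Of these, 3 were called between endometrium and myometrium (2 higher, 1 lower), where 28.1% of all genes tested were called. Between uterus and endometrium 1 was called (higher), beside 8.89% of all genes. Between uterus and myometrium 3 were called (2 higher, 1 lower), beside 27.7% of all genes. The numbers called were thus near the share of all genes. The adiponectin receptor genes Adipor1 and Adipor2 had group medians between 38.7 and 60.3 CPM and between 19.2 and 35.4 CPM, and neither was called between the tissues in the main model. With spike-in scaling, Adipor1 was called lowest in myometrium against both other tissues and Adipor2 higher in endometrium. C3 and Cfb, the components of the alternative complement pathway in which factor D cleaves factor B, were called higher in endometrium than in myometrium by 1.91 (SE 0.34) and 2.93 (SE 0.49) on the log2 scale, and higher in uterus than in myometrium by 1.60 (SE 0.29) and 2.90 (SE 0.48). Group medians of Cfb ran from 25.6 CPM in WT myometrium to 677 CPM in KO endometrium. The substrate gene of factor D was therefore counted in all groups while Cfd itself was near 0 in all but a few samples. Cdh13, which encodes the adiponectin-binding T-cadherin, was lower in endometrium than in myometrium (-0.85, SE 0.25, adjusted p = 0.0102), and Cfp, the properdin gene, was higher in uterus than in endometrium (0.90, SE 0.30, adjusted p = 0.0491), a call lost with relative log expression factors. Lepr, the leptin receptor gene, was lower in uterus than in myometrium (-1.14, SE 0.36, adjusted p = 0.0154). With spike-in scaling the calls for Lepr and Cdh13 were lost.

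Of the brown fat list, Cox8b, a subunit of cytochrome c oxidase also found in muscle, was lower in endometrium than in myometrium by a log2 fold change of -4.52 (SE 0.39, adjusted p = 3.83e-11) and Dio2, which activates thyroid hormone, was higher by 1.19 (SE 0.32, adjusted p = 0.00390). The remaining called gene was Slc27a2, a fatty acid transport and activation gene, higher in endometrium by 1.96 (SE 0.63, adjusted p = 0.0157). In that comparison 3 of the 9 genes of the list that were tested were called, beside 28.1% of all genes.

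The genes whose levels varied most like the members were sought among 12401 genes with at least 3 counts in at least 5 samples, by Pearson's r with the mean log2(CPM + 1) of the 10 members over the 42 samples. The first 10 were Enho (r = 0.663), Hspb11, Camk2g, Hoxa7, Clec3b, Cpz, Zgrf1, Smad9, Csrp2 and Stbd1 (r = 0.597). The points share mice, tissue layers and libraries, so these values are descriptions. Enho had 10, 7, 19 and 10 counts in the 4 samples and up to 16 in others, so it was not restricted to them. With the mean of the 5 restricted genes alone, 1 of the 10 genes was shared (Smad9) and the highest r was 0.486, for Bbs12.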

How the data were processed

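The authors deposited raw counts per gene for 45 uterine libraries, without scaling or a gene filter, together with 92 ERCC spike-ins. Each library was made from 10 ng of RNA in one pooled preparation. The submitters' processing notes name HTSeq and mm9, while the methods of the study name TopHat and Homer, so which program made the counts, and whether it used strand, was not settled. Libraries were grouped by the tissue, genotype and mouse in their labels. The 3 endometrium libraries of KO mouse 13 and the 2 myometrium libraries of WT mouse 12 were summed. Nothing more than the mouse number says how samples were separated.

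Levels are counts per 1000000 gene counts of a library (CPM). A gene was tested if 5 or more samples of the fit had at least 1 CPM, using the quasi-likelihood test of edgeR 4.0.16 (R 4.3.3, limma 3.58.1), TMM scaling and Benjamini-Hochberg adjustment over all genes tested. The test was checked on simulated counts. Alternatives were spike-in scaling, relative log expression factors, DESeq2 1.42.0, other filters, the deepest library of a mouse, plate rows as a covariate, single genotypes and leaving out each mouse. The mouse number pairs the tissues: deviations from the group means had a mean correlation of 0.107 (endometrium and myometrium), 0.162 (uterus and endometrium) and 0.0808 (uterus and myometrium) within a mouse and of -0.0179, -0.0266 and -0.0135 between mice.

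All 10 members were named. Of the other lists, called genes or the most abundant were named, and the 4 samples with 3 or more Adipoq counts were singled out after their values were seen, as were the genes named in those samples because they were the highest of their group, and Pparg and Aqp7. Members and lists were chosen with earlier results of these data known. Trarg1, Emr1 and Muc16 were listed but have no row under those symbols.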

Additional observations from a re-analysis of the deposited data

Results flagged for a closer look

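Within groups of 7 mice, 29 combinations of a member and a group were examined, and in 12 the highest or lowest mouse lay far from its neighbour (its gap to the next mouse, over the range of the group, was above Dixon's 95% critical value). By chance about 1 in 20 groups would be picked out this way, but that rate does not hold here. Where a single mouse had counts, the gap always equals the range. Members were also selected partly for being high in single libraries, and 9 of the 12 values lay in the 4 samples with Adipoq counts. The number picked out is therefore a description and cannot be set against the rate.

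Cfd was at 217.2 CPM in WT uterus of mouse 1 and at 200.2 CPM in WT myometrium of mouse 8. Adipoq was at 12.22 CPM and 10.01 CPM and Retn at 14.11 CPM and 14.01 CPM in the same samples. Cidec was at 8.463 CPM in WT uterus of mouse 1, at 8.006 CPM in WT myometrium of mouse 8 and at 6.188 CPM in WT endometrium of mouse 8. In KO endometrium, mouse 13 stood above the others with Fabp4 at 18.92 CPM and Plin4 at 4.936 CPM. Its 4 smooth muscle markers summed to 8082 CPM, against a median of 581 CPM in that group, and their part in these values was not tested. Plin4 in WT myometrium of mouse 5, at 1.877 CPM, was the only value picked out for being low. The 4 epithelial markers of that sample summed to 576 CPM, against a median of 107 CPM in its group, and their part in this value was not tested.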

How the results depend on the processing

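A count of 0 in a library allows up to 2.45 to 11.7 CPM. In every comparison, 6 of the 10 members reached 1 CPM in too few samples to be tested. Counts below are of members called. Between KO and WT, 0 members were called in each tissue under the alternatives run, except in myometrium with no filter on low counts. There 1 was called (Cfd, a gene selected partly on these same counts). Between endometrium and myometrium the count was 2, and 4 (with Car3 and Cfd) without the 4 samples with Adipoq counts. That alternative was chosen after the data were seen, and left samples out for a gene that moved with Cfd and Car3. Calls of Cfd or Car3 added by it, here and below, cannot serve as tests of these genes. Between uterus and endometrium it was 2, and 3 (with Car3) with DESeq2, spike-in scaling, the replicate block or without the 4 samples, 2 (Car3 and Fabp4) in KO mice alone, but 1 with a filter at 10 CPM, 0 in WT mice alone and 1 to 3 when each mouse was left out. Between uterus and myometrium it was 1, but 0 in WT mice alone, 2 in KO mice alone, 2 without the 4 samples and 1 to 3 when each mouse was left out. Among the genes most like the members, 3 of 10 were shared with Spearman's rho and 1 of 10 with the mean of 5 members, while 8 were shared with spike-in scaling. In these cases the cause was not tested, apart from the smaller number of mice or genes in the fits that left some out.

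Directions turned as follows. Car3 between genotypes in uterus was -0.14 with spike-in scaling and ran from -0.28 to 1.28 when each mouse was left out, and Plin4 there from -0.38 to 0.27. Fabp4 between genotypes in endometrium was 0.62 without the 4 samples. Cfd between uterus and myometrium was -4.54 with DESeq2, -1.90 with the replicate block, -2.82 without the 4 samples (adjusted p = 0.0037 in edgeR) and -6.07 to 3.22 when each mouse was left out. The 4 samples held 451 of the 467 Cfd counts and were left out for a gene that moved with Cfd. That p therefore cannot serve as a test of Cfd. Cfd between endometrium and myometrium ran from -1.74 to 2.15. With the mouse as replicate block, 2, 3 and 1 members were called in the 3 comparisons of tissues, Car3 between uterus and endometrium being the one change. Spike-in scaling moved the median of all genes by over 0.1 in 5 comparisons, to -0.37 and 0.27 between genotypes in uterus and endometrium, and to 0.39, 0.18 and 0.58 between endometrium and myometrium, uterus and endometrium, and uterus and myometrium. Of the genes called in the last 3 comparisons, the share called higher in the first tissue went from 52.9%, 60.2% and 56.5% to 78.0%, 90.6% and 92.8%.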
